A study of Mus musculus with 8 samples.

Results

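The Btaf1 to Kif11 segment is a 465 kb stretch of mouse chromosome 19 that runs from the neighbouring starts of Fgfbp3 and Btaf1 to the start of Kif11. On the GRCm38 build it begins 4.62 kb left of the Fgfbp3 start at 36919615 and ends 3.6 kb right of the Kif11 start at 37376403. It was studied with its flanks in a window of 1.5 Mb. Every deposited pair with at least 1 anchor in the window was taken, which gave 785 of 415681 loops of the series table and 2151 of 1237012 pairs of 5 kb bins in the files of single libraries. Of the 28 anchors in the window, out of 30044 in all, 13 lay inside the segment, 6 in the left flank and 9 in the right flank. The segment's edges were set from the contrast of the B6 line with the other 3 lines in these same counts. All values of that contrast are therefore descriptions, given with no test.

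The study measured H3K27ac HiChIP contacts in mouse embryonic stem cells of 4 lines, with 2 technical replicates each. B6 was line B6 5-1 of strain C57BL/6J, and D2 was line D2 5-5 of DBA/2J. B6-13D2 was line QJ 6-1 of the congenic strain B6.D2-(rs30079041-rs51756099)/Bakr, a C57BL/6J genome with a DBA/2J interval on chromosome 13. D2-13B6 was line XE 2-4 of the reciprocal strain D2.B6-(rs29224292-rs13469455)/Bakr, a DBA/2J genome with a C57BL/6J interval, and the labels and the design text name different markers for one end of that interval. By these labels, B6 and B6-13D2 carry the same strain's chromosome 19, and so do D2 and D2-13B6. Cells of all groups were grown undifferentiated with LIF, the MEK inhibitor PD0325901 and the GSK3 inhibitor CHIR99021. Each group is 1 line, so a value for a group is a value for that line, and p-values measure the spread between technical replicates only.

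H3K27ac marks active promoters and enhancers. In HiChIP, DNA that is near other DNA in the nucleus is joined to it, and the joined fragments that carry the mark are pulled down and counted. A count therefore rises with the contact frequency of 2 sites, with their acetylation and with the number of DNA copies that carry them, and a bulk library does not separate these from the share of cells involved. Contacts of unrelated sites on 1 chromosome become rarer as the distance between them grows. A copy number variant that includes Fgfbp3 and Ide has been described in C57BL/6J colonies. DNA copy number was not measured in these libraries, and its part in the values below was not tested.

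The genes of the window have varied roles. Fgfbp3 encodes a secreted protein that binds fibroblast growth factors, and Btaf1 an ATPase that removes the TATA-binding protein from DNA. Cpeb3 encodes a regulator of mRNA translation, March5 a ubiquitin ligase of the mitochondrial outer membrane, Ide the insulin-degrading enzyme and Kif11 a kinesin motor of the mitotic spindle. Hhex, a homeobox transcription factor of early endoderm and blood progenitors, starts just right of the segment, and Tnks2, a poly-ADP-ribosylating enzyme, just left of it. Of the 13 protein-coding genes that start in the window, Ppp1r3c, Exoc6, Cyp26c1 and Cyp26a1 had no anchor at their start.

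The promoters at the segment's ends are shown because the loop with the largest B6 excess within the segment joined them, and Hhex is shown as the nearest promoter outside. The sequences are RefSeq's, on GRCm38.p6, 300 bases each and written in the direction of transcription, with 250 bases before the gene's start and 50 after it. Fgfbp3 lies at chr19:36919550-36919849 on the minus strand, Btaf1 at chr19:36925829-36926128, Kif11 at chr19:37376132-37376431 and Hhex at chr19:37434591-37434890, the last 3 on the plus strand. Capitals mark matches, on either strand, to the CCAAT box, to the GC box (GGGCGG), to the core letters of an ETS site (CCGGAAG) or to the cell cycle element called CHR (TTTGAA). These matches do not overlap each other in the promoters shown.
Fgfbp3: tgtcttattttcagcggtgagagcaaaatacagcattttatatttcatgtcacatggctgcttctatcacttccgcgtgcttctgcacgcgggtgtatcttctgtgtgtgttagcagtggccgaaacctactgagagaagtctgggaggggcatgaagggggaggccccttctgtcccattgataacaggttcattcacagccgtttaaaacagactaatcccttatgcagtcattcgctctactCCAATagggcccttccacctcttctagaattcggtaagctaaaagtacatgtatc
Btaf1: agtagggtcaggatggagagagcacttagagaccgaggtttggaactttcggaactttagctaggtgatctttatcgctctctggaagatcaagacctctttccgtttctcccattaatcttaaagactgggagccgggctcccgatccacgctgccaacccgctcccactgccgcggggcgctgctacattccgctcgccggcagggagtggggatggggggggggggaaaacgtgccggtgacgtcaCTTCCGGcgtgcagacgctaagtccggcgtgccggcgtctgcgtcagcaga
Kif11: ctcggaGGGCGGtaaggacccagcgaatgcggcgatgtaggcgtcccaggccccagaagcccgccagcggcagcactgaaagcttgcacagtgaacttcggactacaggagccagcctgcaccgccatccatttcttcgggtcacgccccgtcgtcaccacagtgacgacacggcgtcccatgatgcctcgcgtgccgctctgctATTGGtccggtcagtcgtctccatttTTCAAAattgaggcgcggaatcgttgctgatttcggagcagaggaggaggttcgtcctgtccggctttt
Hhex: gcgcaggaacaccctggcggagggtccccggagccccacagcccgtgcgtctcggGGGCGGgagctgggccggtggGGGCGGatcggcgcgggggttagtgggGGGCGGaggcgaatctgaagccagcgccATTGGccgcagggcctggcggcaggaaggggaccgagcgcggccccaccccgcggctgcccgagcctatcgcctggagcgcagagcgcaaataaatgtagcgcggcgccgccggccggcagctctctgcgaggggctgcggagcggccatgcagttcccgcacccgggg
The Fgfbp3 promoter held 1 CCAAT box and the Btaf1 promoter 1 ETS core. Kif11 held a CCAAT box, a GC box and a CHR element, each at 1 place, and Hhex held 1 CCAAT box and 3 GC boxes. The NRF1-like motif of 10 letters was in none of the 4. Over 32851 RefSeq promoters of the same length, the CCAAT box occurred in 37.4%, the GC box in 35.7%, the CHR element in 17.9%, the ETS core in 8.86% and the NRF1-like motif in 4.6%. A match describes letters only. The table's entry for Ide lay 3308 bases from the GENCODE start that falls in the Ide anchor, so it was not printed.

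Library totals ran from 737955 to 1425304 counts of read pairs, and levels are given as CPM, the count scaled to the library's total. The deposited counts carry no molecular identifiers, so every interval below covers counting error only. The labelled cell type was checked with marker starts: all 6 embryonic stem cell markers (Pou5f1, Sox2, Nanog, Esrrb, Klf4 and Zfp42) lay in anchors, with a summed level of 2518 to 2780 CPM in B6, 2808 to 2926 in D2, 2547 to 2812 in B6-13D2 and 3038 to 3270 in D2-13B6. Of 5 markers of differentiated lineages, 0 lay in an anchor. Of 4 fibroblast markers, Twist1 and Thy1 had no anchor, and Col1a1 and Col3a1 together ranged from 31.2 to 59.6 CPM over all libraries.

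Along the window, contacts of single 5 kb bins were higher in B6 at most places in the segment and close to the other lines in the next listed bins on either side of it. The last listed bin before the left edge, at 36900001, held 56.3 ± 0.88 CPM in B6 (SD, n = 2 libraries) and 52.6 ± 3.76 in the other lines (SD, n = 6 libraries). The first bin inside, which ends at 36920000, held 136 ± 11.7 in B6 and 52.2 ± 10.6 in the others. At the right edge, the Kif11 start bin at 37375001 held 197 ± 2.71 in B6 and 82.2 ± 10.4 in the others, and the next listed bin, at 37385001, held 116 ± 16.5 and 106 ± 9.34. On the log2 scale the B6 excess thus went from 0.10 to 1.38 across the left edge and from 1.26 to 0.13 across the right one.

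**Figure D1:**
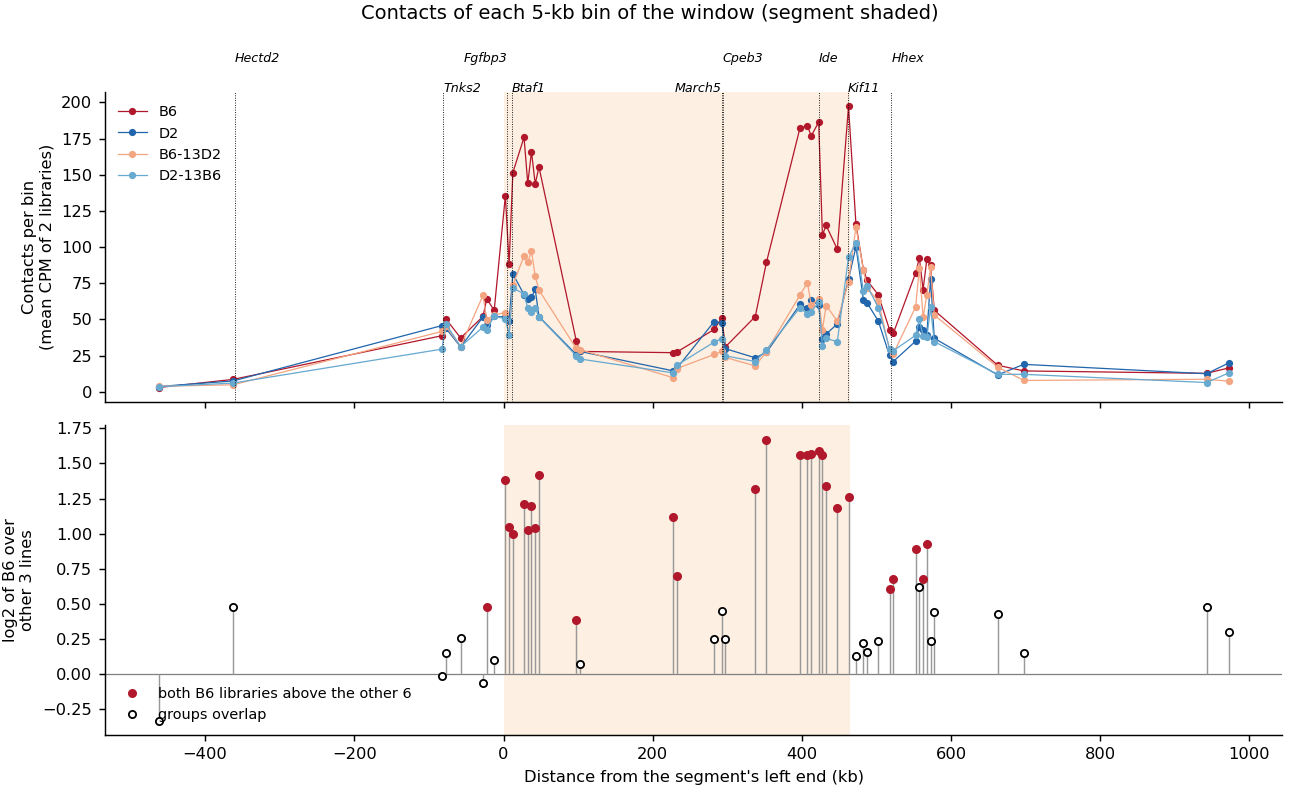
Contacts of each listed 5 kb bin against its distance from the segment's left end in kb; the upper panel gives the mean CPM of the 2 libraries of each line with gene starts as dotted lines, the lower panel the log2 ratio of the B6 mean to the mean of the other 6 libraries. The segment is shaded. Filled points, in which both B6 libraries lay above all 6 others, fill most of the segment, and the bins around Cpeb3 and March5 in its middle overlap.

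The bins inside the segment were not uniform. Of its 25 bins, 21 had both B6 libraries above the other 6, against 1 of 6 left-flank bins and 5 of 16 right-flank bins with at least 10 counts in 2 libraries. Over all 42062 such bins of the series, 8.84% had this order, and 5.99% had both B6 libraries below the others, an order that 0 of the window's bins had. Because the edges were placed by these values, the share inside is a description of the choice. The log2 excess inside ranged from 0.07 to 1.67, with a median of 1.20, and over all such bins of the series the median was 0.04.

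The total inside the segment was higher in B6 than in each other line. Pairs with both bins inside numbered 1101 and 823 counts for B6. They numbered 344 and 322 counts for D2, 468 and 628 for B6-13D2, and 530 and 537 for D2-13B6. Scaled to CPM, B6 had 1136 ± 29.2, D2 had 416 ± 3.88, B6-13D2 had 470 ± 9.7 and D2-13B6 had 378 ± 2.23 (SD over 2 libraries). Both B6 libraries lay above all 6 others. The B6-13D2 line, with the same strain's chromosome 19, lay far nearer to the DBA/2J lines than to B6, and both its libraries were above theirs. The ratio of B6 to the mean of the other 6 libraries was 2.70, which is 1.43 on the log2 scale.

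The flanks differed much less. Left-flank pairs held 62.0 and 59.6 CPM in B6 against 41.4 to 63.7 in the others, and right-flank pairs held 350 and 267 CPM in B6 against 194 to 287. Both groups overlapped, with log2 ratios of 0.15 and 0.43. In the right flank, B6 replicate 1 lay above the other lines and replicate 2 within their range. The ratio of inside to flank counts within a library does not depend on the library's total. It was 2.76 and 3.36 for the B6 libraries, and 1.26 to 1.66 for the other 6. Both B6 libraries lay above the other 6.

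Contacts across an edge showed intermediate values. Pairs across the left edge held 159 and 154 CPM in B6 against 110 to 142 in the other libraries, a log2 ratio of 0.32. Pairs across the right edge held 229 and 259 CPM in B6 against 134 to 174, a log2 ratio of 0.67. In both classes the B6 libraries were the highest. These ratios depended on the setting: with the edges moved inward by 25 kb they were 0.91 on the left and 1.06 on the right, and for pairs of at least 50 kb 0.47 and 0.89. Pairs that join the left flank to the right flank, over the whole segment, went the other way: B6 held 7 and 4 counts, and the other libraries 8 to 22. In CPM the B6 libraries, at 7.35 and 5.42, lay below all 6 others, at 10.0 to 16.2, which gave a ratio of 0.478 with a 95% exact interval of 0.231 to 0.896.

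**Figure D2:**
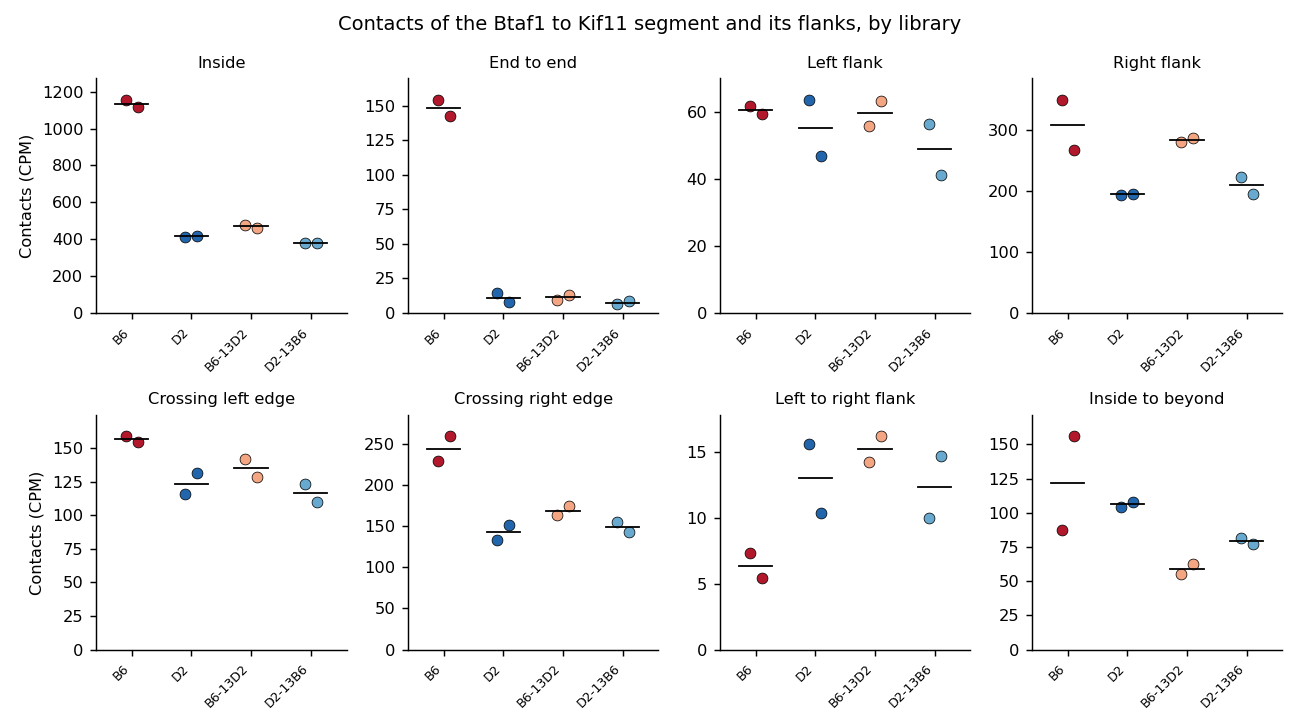
Contacts in CPM of each library in 8 classes of pairs, with 1 point for a library and a line at the mean of each line's 2 libraries; every axis starts at 0. B6 stands far above the others inside the segment and end to end, overlaps them in both flanks, and lies below them for pairs from the left to the right flank.

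Among these classes of pairs, the largest ratio was between the segment's own ends. Pairs that join its first 50 kb to its last 50 kb held 147 and 105 counts for B6, 12 and 6 for D2, 9 and 18 for B6-13D2, and 9 and 12 for D2-13B6. This was 148 ± 8.57 CPM in B6 against 9.92 ± 3.19 in the other 6 libraries, a ratio of 14.9 that is 3.90 on the log2 scale. The B6 excess was not made by these pairs alone: without them the inside total was 988 ± 20.6 CPM in B6 and 412 ± 40 in the others, a log2 ratio of 1.26.

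Contacts inside the segment were rarest at long distances in the other lines, and in B6 they were rarest in the middle of the range. In the other 6 libraries, a possible bin pair held 10.8 CPM on average at a separation of 10 to 25 kb, 0.428 at 100 to 200 kb, 0.379 at 300 to 380 kb and 0.257 from 420 kb up. The B6 libraries fell from 25.4 to 0.815 CPM over the first of these steps and then rose to 1.74 and 5.71. The ratio of B6 to the others was thus 2.35 at the shortest separations, 1.90 at 100 to 200 kb and 22.2 at the longest.

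Ordered by how near the 2 bins lay to the 2 ends, the B6 values below 300 kb were highest at the corner and fell from class to class. The summed distance from the ends falls as the separation grows, so this order shows the same pairs again, with finer classes at the longest separations. Pairs whose distances from the left and the right end summed to less than 15 kb held 20.3 CPM per possible pair in B6 and 0.185 in the others, a ratio of 109. At 15 to 50 kb the values were 2.78 and 0.219, at 50 to 85 kb 2.12 and 0.228, and at 200 to 300 kb 0.742 and 0.398, so that the ratio fell through 12.7 and 9.29 to 1.86. Over these classes the values of the other lines rose, and those of B6 fell. The last class, from 300 kb up, holds the short pairs, and both rose there, to 6.81 in B6 and 3.0 in the others, a ratio of 2.27.

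**Figure D3:**
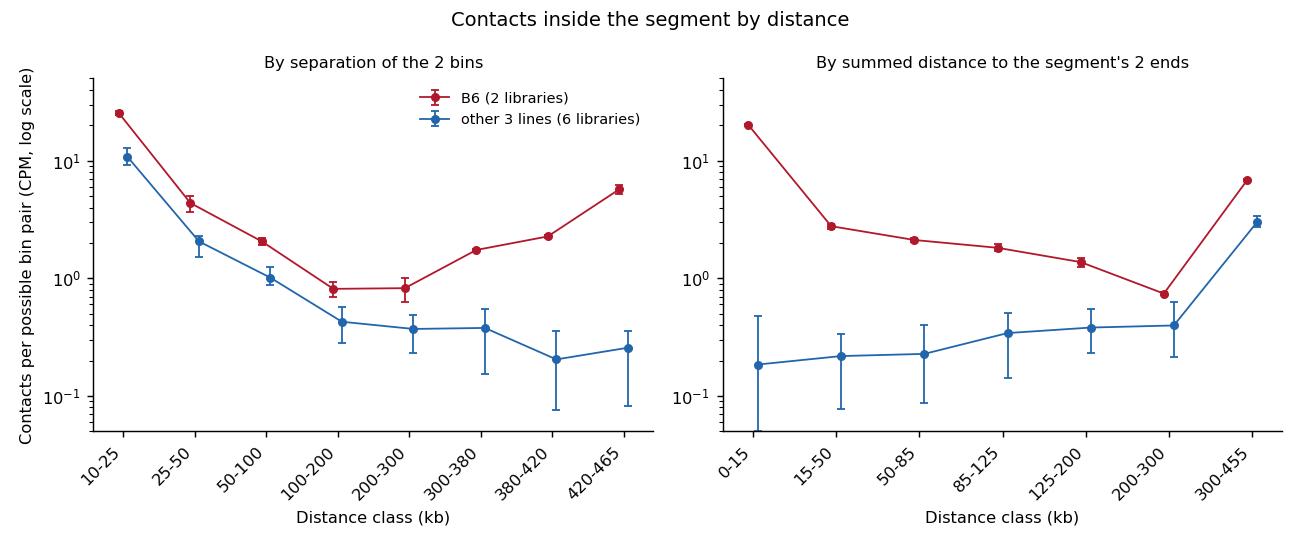
Contacts per possible bin pair inside the segment, in CPM on a log axis, against the separation of the bins (left) and against the sum of their distances to the segment's ends (right), in kb classes; points are means and bars the lowest and highest library, with the lower bar ended at the axis floor. B6 turns upward beyond 300 kb and reaches 20.3 CPM at the corner, where the other 6 libraries have a mean of 0.185.

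A single loop carried the corner. It joined the Fgfbp3 and Btaf1 anchor, 15 kb that end at 36930000, to the 5 kb Kif11 anchor that begins at 37375001, and thus the promoters printed above. The span between the anchor centres was 455 kb. The loop had 59 and 44 counts for B6, 1 and 0 for D2, 0 and 0 for B6-13D2, and 2 and 1 for D2-13B6. B6 was far above every other library, with a ratio of pooled counts, scaled to pooled library totals, of 103 (95% exact interval 39.0 to 385). The 109 given above for the same counts is the ratio of mean CPM. Among the 366395 loops of the series that span at least 100 kb, 493 had 20 or more counts in each B6 library, and of these only this loop had 5 or fewer in the other 6 libraries together. The loop lies in a segment chosen by its B6 values, and these limits were set with earlier results known. Its place is therefore a description and no test.

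The neighbouring end-to-end loops showed the same order at lower counts. The Fgfbp3 and Btaf1 anchor to the Ide start anchor, chr19:37335001-37350000, held 23 and 16 counts in B6 and 0, 3, 3, 3, 1 and 1 in the D2, B6-13D2 and D2-13B6 libraries, a ratio of 14.2 (7.12 to 30.7). The anchor in the Btaf1 body, chr19:36940001-36965000, which also holds the start of a shorter Btaf1 transcript, reached the Ide start anchor with 31 and 24 counts in B6 and 8, 1, 3, 11, 3 and 9 in the others, a ratio of 6.29 (4.04 to 9.89). The same anchor reached Kif11 with 12 and 12 counts in B6 against 2, 1, 1, 1, 2 and 0, a ratio of 13.7 (5.73 to 37.7). In each of these loops both B6 libraries were above the other 6.

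The ends were compared for shared sequence. The Fgfbp3 and Btaf1 anchor and the Kif11 anchor shared 0 runs of 50 bases on either strand, out of 14926 distinct runs in the first and 4951 in the second. The Fgfbp3 and Btaf1 anchor and the Ide start anchor shared 17 runs, and the Btaf1 body anchor and the Ide start anchor shared 78. The window held 0 unread bases on GRCm38.

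For a closer view the segment was divided into 3 blocks by its anchors, after the values had been seen. The left block, up to 36965000, holds the Fgfbp3 and Btaf1 starts, the Cpeb3 block, 37010001 to 37215000, holds the end of Btaf1, Cpeb3 and the March5 start, and the right block, from 37250001, holds Ide and the Kif11 start. Contacts within the left block were 333 and 332 CPM in B6 against 135 to 209 in the others, a log2 ratio of 1.02. Within the right block they were 435 and 396 CPM in B6 against 121 to 160, a log2 ratio of 1.54. Within the Cpeb3 block they were 45.2 and 40.7 CPM in B6 against 24.4 to 48.2, and the groups overlapped through D2 replicate 2 alone. The middle of the segment thus had a smaller excess than its sides, at a log2 ratio of 0.34.

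Contacts between the blocks differed by which blocks they joined. Left to right block pairs held 236 and 172 counts in B6 and 13 to 32 in the other libraries, a ratio of 12.2 (95% exact interval 9.99 to 14.9). Left to Cpeb3 block pairs held 43.1 and 59.6 CPM in B6 against 22.5 to 33.9 in the others, and Cpeb3 to right block pairs 52.5 and 54.2 CPM against 26.5 to 37.8. The log2 ratios were 0.90 and 0.69, with B6 above in both. The left and right blocks lie farther from each other than either lies from the Cpeb3 block, yet in B6 they had the most contacts of the 3 block pairs.

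**Figure D4:**
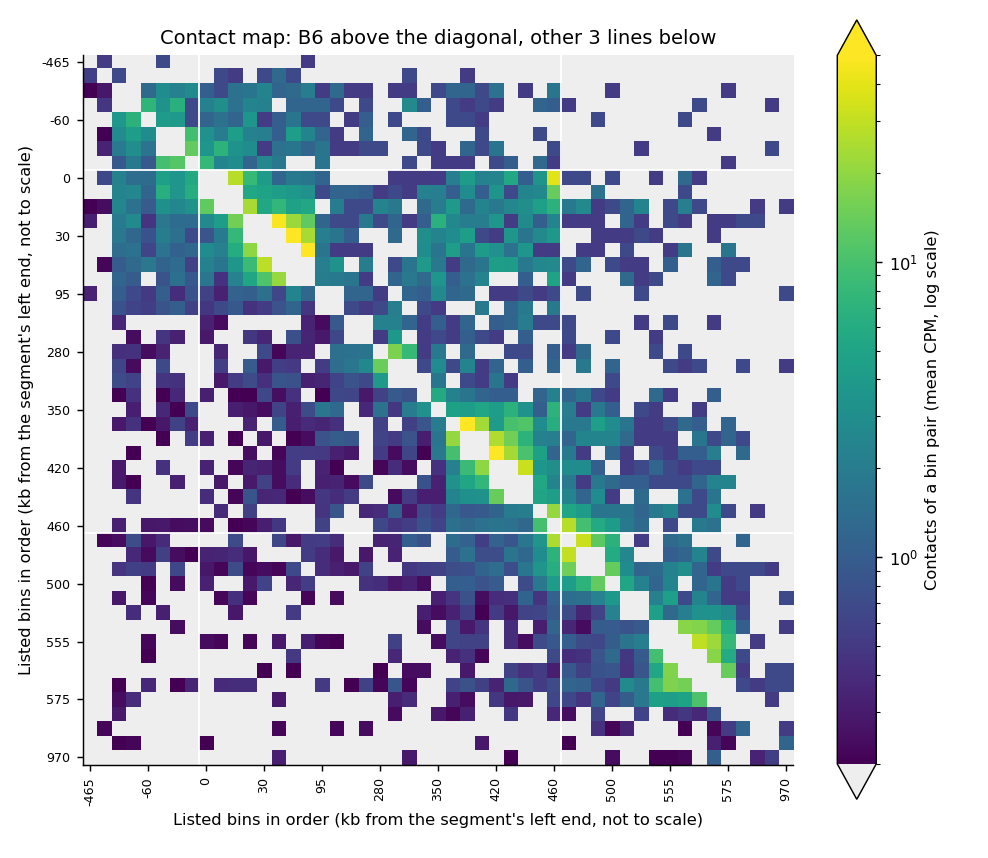
Mean contacts of bin pairs in CPM on a log colour scale, with B6 above the diagonal and the other 6 libraries below it; both axes give the listed bins in order, labelled by kb from the segment's left end, white lines mark the segment's edges, and grey marks pairs with no counts, below 0.2 CPM or closer than 10 kb. In B6 the rectangle that joins the segment's left and right ends fills up to its outer corner, its mirror image below the diagonal is nearly empty, and a fainter excess of B6 goes on past both edges.

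The left flank's contacts differed from B6 to the other lines by partner, in both directions. It met the right block with 28.4 and 28.5 CPM in B6 against 5.73 to 18.04 in the others, a ratio of 2.53 (1.72 to 3.67). It met the left block, its direct neighbour, with 110 and 98.9 CPM in B6 against 83.0 to 107, and the groups overlapped. It met the Kif11 to Hhex stretch, just past the right edge, with 3 and 1 counts in B6 against 5 to 14 in the others. Both B6 libraries were lowest in that class, with a ratio of 0.291 (0.0766 to 0.788). The left block met the same Kif11 to Hhex stretch with 24.2 and 28.5 CPM in B6 against 5.02 to 20.8, a ratio of 2.44 (1.64 to 3.61) with both B6 libraries highest. It met the stretch downstream of Hhex, 37465001 to 37495000, with 21 and 12 counts in B6 against 3 to 9, a ratio of 3.47 (2.11 to 5.69).

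By gene, the promoter anchors at the segment's sides were high in B6. The one in its middle had a smaller excess and overlapped the other lines through D2 replicate 2 alone. Summed over all its loops, the Fgfbp3 and Btaf1 anchor had 351 and 344 CPM in B6, 159 and 177 in D2, 155 and 156 in B6-13D2, and 145 and 154 in D2-13B6, a log2 ratio of 1.14. The 2 genes share this anchor, so their values cannot be separated. The Btaf1 body anchor had 542 and 591 CPM in B6 against 202 to 311 in the others, with a log2 ratio of 1.16. In both anchors the B6 libraries lay above the other 6 without overlap.

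The anchor shared by the Cpeb3 and March5 starts, chr19:37205001-37215000, had 73.5 and 90.8 CPM in B6, 64.9 and 89.8 in D2, 45.8 and 57.5 in B6-13D2, and 59.5 and 63.8 in D2-13B6. The groups overlapped through D2 replicate 2 alone, with a log2 ratio of 0.37. A second Cpeb3 anchor at 37195001 overlapped too, at 0.25, again through D2 replicate 2 alone. The anchor at the end of Btaf1 overlapped as well, at 0.24. An anchor in a Cpeb3 intron, chr19:37140001-37150000, had 53.6 and 55.6 CPM in B6 against 22.1 to 35.1, so the low excess was not shared by every anchor of the middle.

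The Ide start anchor had 382 and 373 CPM in B6, 136 and 113 in D2, 152 and 148 in B6-13D2, and 118 and 117 in D2-13B6, a log2 ratio of 1.53. Anchors within Ide and at its end had log2 ratios of 1.56, 1.57 and 1.67. The Kif11 start anchor had 195 and 199 CPM in B6, 73.4 and 82.0 in D2, 68.2 and 84.0 in B6-13D2, and 96.8 and 89.1 in D2-13B6, a log2 ratio of 1.26. Kif11 itself crosses the segment's right edge. Its 3 anchors past the edge, from 37385001 to 37420000, had log2 ratios of 0.13, 0.19 and 0.24 and overlapped. The middle one of these 3 lies at the start of another Kif11 transcript.

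Hhex, although outside, was above the other lines in B6. Its start anchor, chr19:37430001-37440000, had 89.3 and 77.2 CPM in B6, 51.7 and 40.4 in D2, 47.9 and 63.4 in B6-13D2, and 61.6 and 54.7 in D2-13B6, a log2 ratio of 0.64. The anchor downstream of it had 368 and 285 CPM in B6 against 167 to 273 in the others, a log2 ratio of 0.62, with B6 replicate 2 only just above the highest other library. The left-flank anchors, Tnks2's included, had log2 ratios of 0.08 to 0.26 among those tested, and all overlapped. Tnks2's start anchor was at 89.3 and 89.4 CPM in B6 and 66.0 to 93.8 in the others.

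Split by partner, the excess of each promoter depended on the direction it reached. The Fgfbp3 and Btaf1 anchor met the right block with 137 and 112 CPM in B6 against 3.51 to 7.22 in the others, a ratio of 25.8 (95% exact interval 17.8 to 38.5). With the left flank, on its other side, it had 59.9 and 44.7 CPM against 47.9 to 69.0, which overlapped. The Kif11 start anchor met the left block with 71 and 56 counts in B6 and 1 to 4 in each other library, a ratio of 46.2 (24.9 to 94.9), while with the right flank it had 50.4 and 58.3 CPM against 37.3 to 62.4. Each end promoter was thus high toward the far end of the segment and overlapped the other lines toward its own outside. The excess of the Fgfbp3 and Btaf1 anchor went on past the far edge at a smaller ratio, with 16.8 and 24.4 CPM with the right flank in B6 against 1.43 to 13.0, a ratio of 2.96 (1.84 to 4.71).

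Promoters that are not at an end showed smaller ratios. The Ide start anchor met the left block with 56.7 and 54.2 CPM in B6 against 2.87 to 10.3 in the others, and the right block, in which it lies, with 210 and 217 against 58.6 to 75.8. The ratios were 8.17 (5.68 to 11.9) and 3.16 (2.74 to 3.63). Hhex met the left block with 9 and 8 counts in B6 and 1 to 6 in the others, a ratio of 4.86 (2.25 to 10.6). Tnks2 met the right block with 15 and 8 counts in B6 and 1 to 7 in the others, a ratio of 3.83 (2.07 to 7.09), and met the left block with 26.3 and 25.8 CPM against 20.4 to 33.9. The Cpeb3 and March5 anchor met the right block with 16.8 and 14.9 CPM in B6 against 8.42 to 13.6, and the left block with 10.5 and 14.9 CPM against 2.87 to 10.2. Its contacts within the Cpeb3 block overlapped through D2 replicate 2 alone.

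**Figure D5:**
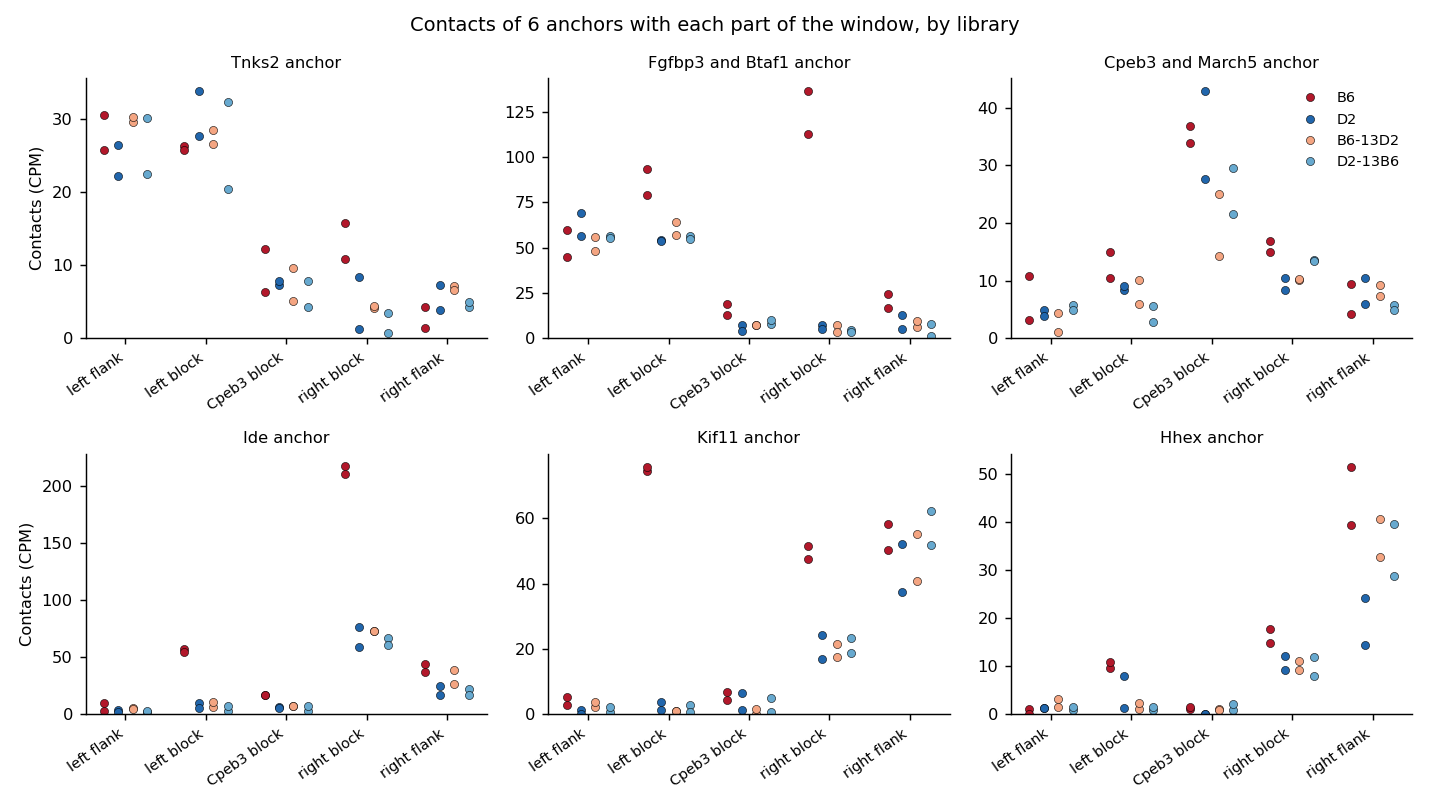
Contacts in CPM of 6 promoter anchors with the flanks and the 3 blocks, with 1 point for a library and 4 colours for the lines; every axis starts at 0. B6 stands alone for the Fgfbp3 and Btaf1 anchor with the right block and for the Kif11 anchor with the left block, and mixes with the other lines for contacts with the nearest flank.

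The window was set beside the whole series. Of the 93 loops of the window with at least 5 counts in 2 libraries, 36 (38.7%) had both B6 libraries above the other 6, against 6.31% of 44706 such loops of the series. Of these 93 loops, 18 passed the minimum only through the B6 libraries. Among the 75 that passed it in the other lines as well, 20 (26.7%) had this order. The share of the series under this narrower minimum was not computed. Over these 75, the median log2 ratio was 0.88 for 20 loops between 2 anchors of the segment, 0.23 for 24 across an edge, 0.32 for 16 in a flank and -0.25 for 12 that leave the window. Over all 14 tested loops that leave the window it was 0.03. Summed over bin pairs, contacts from the segment to beyond the window had 87.2 and 156 CPM in B6 against 55.0 to 108. Their log2 ratio was 0.58, and the groups overlapped. The same sum from the flanks had a log2 ratio of 0.05. Anchors gave 12 of 26 (46.2%) against 10.7% of 21211, and all 26 passed their minimum of 10 counts without B6. The order with both B6 libraries below was found for 0 of the 93 loops and 0 of the 26 anchors, against 5.22% and 4.53% of the series. When the genome was divided into stretches of the segment's length, 0 of 1695 off the segment with at least 100 counts in 2 libraries reached its log2 ratio of 1.43, and the highest was 1.02. The segment was chosen and its edges were set by this contrast, and the stretches had fixed edges. Its rank and the shares above therefore describe that choice and are no test. Of all 1697 stretches, 10.7% had both B6 libraries above and 11.3% both below.

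The other 3 lines can be tested among themselves, since the segment was not chosen by their differences. The tests were fitted over all loops or anchors of the series with edgeR's quasi-likelihood test and adjusted by Benjamini-Hochberg to a false discovery rate (FDR), called at 0.05. Between D2-13B6 and D2, which share the DBA/2J chromosome 19, edgeR called 0 of 93 loops and 0 of 26 anchors of the window, where 0.922% of loops of the series were called (0.734% higher and 0.188% lower in D2-13B6) and 5.73% of anchors (4.28% higher and 1.45% lower). At an unadjusted p under 0.05 there were 3 loops and 3 anchors, against 9.73% of loops and 17.8% of anchors of the series. The 18 loops that passed the minimum only through B6 are among the 93 although B6 is in none of these comparisons, and all called loops below are among the other 75. DESeq2 called 0 of each, and gave no adjusted p for 89 of the loops and 14 of the anchors. Between D2 and B6-13D2, edgeR called 2 of 93 loops, both lower in D2, against 3.57% of the series, of which 2.08% were lower and 1.49% higher. Between D2-13B6 and B6-13D2 it called 3 of 93, all lower in D2-13B6, against 8.59%, of which 4.42% were lower and 4.17% higher. These last 2 comparisons share the B6-13D2 libraries, so they are not independent of each other.

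The called loops lay inside 2 wide anchors and at Ide. Pairs inside the Btaf1 body anchor had 138 and 122 CPM in B6-13D2, 67.3 and 92.4 in D2, and 74.6 and 71.6 in D2-13B6. They were lower in D2 by a log2 change of -0.72 (SE 0.18, edgeR FDR 0.00403) and in D2-13B6 by one of -0.79 (SE 0.16, edgeR FDR 6.6e-05). Pairs inside the anchor downstream of Hhex had 132 and 141 CPM in B6-13D2, 72.2 and 91.1 in D2, and 90.3 and 74.4 in D2-13B6. The log2 changes were -0.77 (SE 0.18, edgeR FDR 0.0012) and -0.71 (SE 0.16, edgeR FDR 0.000368). At both anchors the B6-13D2 libraries lay above those of both DBA/2J lines. The 2 calls in D2 each held in 11 of 14 alternative settings. They were lost with DESeq2 (adjusted p of 0.0699 and 0.0981), without D2 replicate 1 (edgeR FDR 0.346 and 0.202), and without 1 of the B6-13D2 libraries, replicate 1 for the Btaf1 body (0.0665) and replicate 2 downstream of Hhex (0.0514). The calls in D2-13B6 held in 14 of 14 and 13 of 14, and the one downstream of Hhex was lost without D2-13B6 replicate 2 (edgeR FDR 0.0885). The loop from the Ide start to the second Kif11 start anchor at 37395001 held 12 and 15 counts in B6-13D2, 5 and 6 in D2, and 8 and 4 in D2-13B6, and was called in the second comparison only (log2 -1.39, SE 0.48, edgeR FDR 0.0484). That call was kept in 6 of its 13 alternative settings.

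Among anchors, edgeR called 5 of 26 between D2 and B6-13D2, 2 higher and 3 lower, against 14.3% of the series (5.97% higher and 8.33% lower). It called 3 of 26 between D2-13B6 and B6-13D2, all lower, against 24.5% (11.7% higher and 12.7% lower). Called in both were the Btaf1 body anchor, with log2 changes of -0.46 (SE 0.13, edgeR FDR 0.00785) and -0.45 (SE 0.12, edgeR FDR 0.00308), and the anchor downstream of Hhex, with -0.57 (SE 0.14, edgeR FDR 0.0012) and -0.58 (SE 0.13, edgeR FDR 0.000209). The latter held in all 14 alternative settings in either comparison. The former held in 13 of 14 in each, and was lost without D2 replicate 1 (log2 -0.34) and without D2-13B6 replicate 2 (log2 -0.36). Called in 1 comparison were a second Kif11 start anchor at 37395001, lower in D2, and a Tnks2 body anchor at 36885001, lower in D2-13B6. The Cpeb3 anchor at 37195001 and an intergenic anchor at 37885001 were higher in D2. These 4 calls held in 8, 4, 11 and 10 of 14 settings, in that order. Of these called anchors, the Btaf1 body anchor, the one at 37395001 and the one at 37195001 lie at starts of further transcripts of Btaf1, Kif11 and Cpeb3. The anchors that hold the main annotated starts of Fgfbp3 and Btaf1, of Cpeb3 and March5, of Ide, of Kif11 and of Hhex were called between no pair of these lines. The Ide start came nearest, at a log2 change of -0.39 in D2 (SE 0.15, edgeR FDR 0.0733) and -0.33 in D2-13B6 (SE 0.14, edgeR FDR 0.0717).

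Median GC was 43.4% for its bins, 42.0% in the left and 43.6% in the right flank. The median share of bases that the reference marks as repeats was 36.0% inside, 31.5% in the left and 28.4% in the right flank, with no test. A CTCF-like motif of 12 letters, searched on either strand, occurred in 15 of 25 bins inside, 3 of 8 in the left flank and 6 of 16 in the right, and in 33.5% of the 54464 bins that make up the anchors of the series. Of the 34 matches in the window, 16 had the same letters, ccagaagagggc, and all 16 lay in sequence that the reference marks as repeats. CTCF binding was not measured.

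Anchors of genes elsewhere were ranked by the correlation of their log2(CPM + 1) with that of the inside total over the 8 libraries. Among 12985 anchors with at least 200 counts, 147 had a Pearson r above 0.9. The 3 highest were at Bri3bp on chromosome 5 (0.997), Clstn3 on chromosome 6 (0.975) and Ryk on chromosome 9 (0.971). Bri3bp had 74.6 and 75.9 CPM in B6 and 50.5 to 55.0 in the others. These correlations rest on 2 libraries of 1 line that are high together, and are given as a description.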

How the data were processed

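H3K27ac HiChIP libraries of 4 embryonic stem cell lines were used, 2 technical replicates each. The deposited values are raw counts of read pairs per loop (series table) and per pair of 5 kb bins (library files), which the authors left without normalization. The submitters' processing notes name BWA 0.7.18, SAMtools 1.19.2, edgeR 3.34.1 and mm10, which is GRCm38. The loop caller and the handling of reads that map to several places are not given in the sources used here.

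CPM were computed from each library's total. Tests used edgeR 4.0.16 in R 4.3.3 (quasi-likelihood, TMM factors, all 8 libraries in 1 fit) on loops with at least 5 and anchors with at least 10 counts in 2 libraries, and were tested on simulated data. DESeq2 1.42.0 was an alternative. Exact 95% intervals of count ratios are conditional binomial. Ratios printed with such an interval are of pooled counts over pooled library totals. The remaining ratios of B6 CPM to that of the other lines are of mean CPM. Named were genes that start in the window, called features, and the 3 genes most like the inside total. Further loops were drawn from the end-to-end loops and the 4 with the most counts in each class, and not all of these are printed. The members, blocks, lists and tests were chosen with earlier results of these data known. Further alternatives were other scalings and filters, chromosome 11 left out, the replicate number as a block, each library left out, loops in place of bin pairs, longer pairs and edges moved inward.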

Additional observations from a re-analysis of the deposited data

Results flagged for a closer look

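For 3 results, with counts scaled to library totals, exchange of the chromosome 13 interval went with opposite directions in the 2 strain backgrounds, in every library, when the D2 allele of the interval was set against the B6 allele. The difference between the backgrounds was not tested. The comparison of B6-13D2 with B6 is part of the contrast by which the segment was chosen. Its direction inside the segment is therefore a description of that choice. For the inside total, the D2 allele went with a log2 difference of -1.27 in the B6 background (B6-13D2 against B6) and 0.14 in the D2 background (D2 against D2-13B6), which differ by 1.41. With TMM scaling, chosen after seeing the data, these were -1.24 and 0.09, and both D2 libraries stayed above both D2-13B6 libraries. For the anchor at the Fgfbp3 and Btaf1 starts the differences were -1.16 and 0.17, which differ by 1.33. For the anchor at the Cpeb3 and March5 starts they were -0.67 (mean CPM of 51.6 against 82.2) and 0.33 (77.4 against 61.7), which differ by 1.0. With TMM scaling the D2 background gave 0.02 and 0.18 at these 2 anchors, and D2 replicate 1 lay below both D2-13B6 libraries at each, so the opposite direction in every library was lost. In the edgeR fit, D2-13B6 minus D2 was -0.02 (FDR 0.974) and -0.17 (FDR 0.71) there. Each line is 1 culture line, so line and interval cannot be told apart.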

How the results depend on the processing

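The log2 ratios of B6 to the other lines for the inside, flank, crossing and end-to-end totals, the inside to flank ratio and the blocks kept their sign in every alternative run. Alternatives were not run for the pairs from left to right flank or for single loops and anchors in this contrast. The inside total (1.43) was 1.40 with TMM scaling, 1.91 for pairs of at least 50 kb and 1.36 with edges moved inward by 25 kb, and 1.40 to 1.47 with 1 library left out. Under the longer pairs and the moved edges, in that order, the flanks (0.34) gave 0.16 and 0.54, pairs across an edge (0.52) 0.71 and 0.98, and the inside to flank ratio (1.09) 1.74 and 0.84. End-to-end pairs (3.90) gave 2.75 with moved edges. Leaving out B6 replicate 1 or 2 gave 0.16 or 0.50 for the flanks and 1.23 or 0.94 for the inside to flank ratio, the ends of their ranges. Between D2 and B6-13D2, DESeq2 called 0 loops and 2 anchors, against 0.969% and 5.35% of the series, and gave no adjusted p for 65 of the loops and 1 of the anchors. With 1 library left out, calls ran from 0 to 2 loops (0 without D2 replicate 1, 1 without B6-13D2 replicate 2, where 1.62% and 1.8% of the series were called) and from 2 to 5 anchors (2 without D2 replicate 1 or 2, with 6.94% or 8.13% of the series, and 3 without B6-13D2 replicate 1 or 2, with 12.6% or 9.0%). Between D2-13B6 and B6-13D2 they ran from 1 to 3 loops (1 without D2-13B6 replicate 2, with 4.24% of the series). The causes were not tested. Replicate numbers did not pair the tested lines, with correlations of deviations between them from -0.0403 to 0.0261. B6, which is in the fit, gave -0.155 with B6-13D2 for anchors and -0.0497 for loops. With the replicate number as a block, calls were 2 loops and 5 anchors for D2 against B6-13D2 (3.17% and 12.8% of the series), and 2 loops and 2 anchors for D2-13B6 against B6-13D2 (7.77% and 22.4%). Of 785 loops, 93 had enough counts for a test.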
